A study of Mus musculus with 12 samples.

Results

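The genes described here are a hand-named group of 9 that serve eosinophils: the surface lectins Siglecf and Siglecg, the receptors Ccr3 and Il5ra, the transcription factor Cebpe, the granule protein genes Epx and Prg2, and the eotaxins Ccl11 and Ccl24. They were taken by gene symbol from a table of 25070 genes, with earlier results of these data known. Rows were found for 8 of the 9, and Epx was not analysed here. Levels are given as CPM (counts per M reads of a library, M standing for mega) in mouse skin biopsies taken 4 days after tick attachment. The series asks how mouse skin responds to repeated tick infestation. A single bitten mouse carried the label saliva immune (1 library). The other 11 libraries were from naive mice without a bite (n = 2), a first exposure (n = 3), and bitten mice with the label ticks 2x (n = 3) or ticks 3x (n = 3). The naive labels say that there was no bite, although they carry the same day as the others. The sources used here state neither the strain, sex and age of the mice nor the tick species, nor how saliva immunity was raised, nor whether 2x and 3x include the sampled infestation. The labels name no genetic change in any group, and they do not say whether each library is a separate animal, so p-values measure only the spread between these libraries.

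Eosinophils are granulocytes of allergic and antiparasite responses. They mature in bone marrow under interleukin 5, enter tissue along the eotaxins through the receptor CCR3, and carry granules of major basic protein and eosinophil peroxidase. The granule protein genes are transcribed mainly during maturation in the marrow. In skin, eosinophils gather around tick attachment sites in animals that have met ticks before, beside basophils and mast cells.

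The library labelled saliva immune held the highest level of 7 of the 8 genes among all 12 libraries, by a ratio to the next highest library of 2.31 for Ccl11 up to 4.38 for Siglecf. Ccl24 was the exception. Of all tested genes, 6.35% were highest in that library, and 0.193% exceeded the next highest library at least 2-fold. That ratio was a measure chosen after the values were seen. Between the replicated groups no gene of the group passed the test in any of 6 comparisons, where 0% to 0.82% of tested genes did. The lowest adjusted p after repeat exposure (2x and 3x together, n = 6) against first exposure was 0.0747, for Ccl24, which averaged 22.1 ± 4.22 CPM after repeat exposure and 9.16 ± 6.18 CPM after first exposure (SD, n = 6 and 3).

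Estimated depth was 12.5 M to 29.8 M reads per library, and a level of 3 reads, used as a detection floor, lay between 0.101 and 0.24 CPM. Skin was recognisable in all 12 libraries, with a mean of 6 keratinocyte genes between 8.86 and 11.2 on the log2(CPM + 1) scale. The hair follicle content differed inside every group: the mean of 11 follicle genes on that scale was 0.62 in the saliva immune library. The naive libraries had 8.08 and 0.78, those of first exposure 9.69, 10.02 and 1.77, those of 2x 9.52, 2.96 and 0.61, and those of 3x 5.60, 7.25 and 0.71. Libraries poor in follicle therefore occur in all 5 groups, with saliva immune represented by such a library alone. The sample titles put first exposure and saliva immune in a series numbered 4 and the other 8 libraries in a series numbered 6. Exposure and title series cannot be told apart in any comparison of first exposure or saliva immune with a group of the other series. In bulk skin, fewer cells of a type and less RNA per cell cannot be told apart either.

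Across all libraries the lectin and receptor genes had similar profiles, with lower correlations when the saliva immune library was left out. Their promoters are shown for that likeness and because RefSeq windows for them were found. Such windows (GRCm38.p6, 250 bases before to 50 after a start site) were found for 4 of the 8 genes: Siglecf (chr7:43351091-43351390, plus strand), Siglecg (chr7:43407989-43408288, plus strand, the first of 2 windows), Ccr3 (chr9:124021721-124022020, plus strand, at a start site inside the gene) and Il5ra (chr6:106748988-106749287, minus strand). Cebpe, Prg2, Ccl11 and Ccl24 are named only. Capitals mark GATAA, the core bound by GATA factors.
Siglecf: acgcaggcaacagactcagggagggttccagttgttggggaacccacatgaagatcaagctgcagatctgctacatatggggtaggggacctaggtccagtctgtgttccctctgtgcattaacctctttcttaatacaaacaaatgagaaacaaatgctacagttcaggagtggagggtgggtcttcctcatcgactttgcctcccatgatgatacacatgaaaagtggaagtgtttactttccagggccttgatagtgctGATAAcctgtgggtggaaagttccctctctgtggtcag
Siglecg: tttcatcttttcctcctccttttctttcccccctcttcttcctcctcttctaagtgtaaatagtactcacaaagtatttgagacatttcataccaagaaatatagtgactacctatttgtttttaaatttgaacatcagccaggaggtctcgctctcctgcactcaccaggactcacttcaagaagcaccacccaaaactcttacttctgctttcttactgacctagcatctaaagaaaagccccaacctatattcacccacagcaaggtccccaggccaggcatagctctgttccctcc
Ccr3: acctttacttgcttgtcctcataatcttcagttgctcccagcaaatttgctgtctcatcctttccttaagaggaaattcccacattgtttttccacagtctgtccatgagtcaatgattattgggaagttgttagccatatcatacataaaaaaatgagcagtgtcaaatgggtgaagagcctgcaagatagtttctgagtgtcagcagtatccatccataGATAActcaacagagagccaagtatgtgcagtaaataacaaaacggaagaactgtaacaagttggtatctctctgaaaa
Il5ra: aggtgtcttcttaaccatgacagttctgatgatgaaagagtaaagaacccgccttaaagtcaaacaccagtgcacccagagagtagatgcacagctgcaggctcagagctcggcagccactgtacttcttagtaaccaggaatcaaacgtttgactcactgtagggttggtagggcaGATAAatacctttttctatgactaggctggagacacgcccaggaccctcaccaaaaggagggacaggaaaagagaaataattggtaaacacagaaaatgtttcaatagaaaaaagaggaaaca
Both strands were searched for GATAA, which reads TTATC on the other strand. They were also searched for GAGGAA, a core bound by the factor PU.1, and its reverse complement TTCCTC. None of the matches overlapped another. With positions counted from the start site, GATAA began at 13 for Siglecf, at -29 for Ccr3 and at -73 for Il5ra, and 25.4% of 32851 RefSeq promoter windows of the mouse held it. GAGGAA began at -65 for Siglecf, at -241 and -212 for Siglecg, at -181 for Ccr3 and at 42 for Il5ra, and 28.3% of windows held it. The second window of Siglecg, not shown, held neither GATAA nor GAGGAA. All matches given are of letters and not measured binding.

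Siglecf encodes Siglec-F, an inhibitory sialic acid lectin that marks mouse eosinophils (chromosome 7, 43351341 to 43359475). It was at 11.5 CPM in the saliva immune library. It was at 1.68 and 0.479 CPM in the naive libraries, 0.664, 0.167 and 1.34 CPM after first exposure, 1.52, 1.53 and 1.99 CPM in 2x, and 1.46, 2.62 and 1.54 CPM in 3x. All 6 repeat exposure libraries lay above all 3 of first exposure, while naive skin spanned both. The saliva immune value rests on about 294 reads (exact Poisson 95% interval 10.2 to 12.9 CPM, counting error only).

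Siglecg lies 48716 bases further along the same strand of chromosome 7 (43408192 to 43418349) and encodes Siglec-G, a lectin best known as an inhibitor of B cell receptor signalling. It was at 16.7 CPM in the saliva immune library. It was at 1.31 and 1.04 CPM in the naive libraries, 0.699, 0.167 and 1.16 CPM after first exposure, 1.28, 2.27 and 2.42 CPM in 2x, and 2.14, 3.97 and 1.54 CPM in 3x. The repeat exposure libraries again lay above those of first exposure without overlap. The mean of 6 B cell genes was 0.31 on the log2(CPM + 1) scale in the saliva immune library, the fifth highest of 12.

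Ccr3, the eotaxin receptor of eosinophils and also of basophils (chromosome 9, 124017825 to 124031692), was at 17.7 CPM in the saliva immune library. It was at 2.79 and 0.879 CPM in the naive libraries, 0.874, 0.613 and 2.89 CPM after first exposure, 3.00, 3.22 and 2.42 CPM in 2x, and 3.21, 5.98 and 2.39 CPM in 3x. First exposure replicate 3 reached the range of repeat exposure, and the other first exposure libraries lay below it. Replicate 2 of 3x stood above the other 5 repeat exposure libraries.

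Il5ra encodes the alpha chain that gives the interleukin 5 receptor its specificity (chromosome 6, 106710375 to 106749037). It was at 3.41 CPM in the saliva immune library, on about 87 reads. It was at 1.03 and 0.559 CPM in the naive libraries, 0.385, 0.335 and 0.853 CPM after first exposure, 1.18, 0.861 and 0.807 CPM in 2x, and 0.973, 1.41 and 0.972 CPM in 3x. First exposure replicate 3 lay just inside the range of repeat exposure, above the lowest 2x library.

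Cebpe, a transcription factor of the C/EBP family needed for the late maturation of neutrophils and eosinophils (chromosome 14, 54710363 to 54712174), was at 4.87 CPM in the saliva immune library. It was at 0.504 and 0.320 CPM in the naive libraries, 0.455, 0.279 and 0.820 CPM after first exposure, 0.737, 0.634 and 1.12 CPM in 2x, and 0.292, 1.22 and 0.0997 CPM in 3x. The 3x libraries alone spanned all other groups but saliva immune. Replicate 3 of 3x was under its detection floor of 0.149 CPM.

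Prg2 encodes major basic protein, the crystal core of the eosinophil granule (chromosome 2, 84980461 to 84983632). It was at 1.17 CPM in the saliva immune library, on about 30 reads (exact Poisson 95% interval 0.789 to 1.67 CPM). It was listed at 0 in all 3 first exposure libraries, whose floors were 0.105, 0.167 and 0.129 CPM, and in naive replicate 2, 2x replicate 1 and 3x replicate 3. The other 5 libraries held 1 to 6 reads each, with the highest level, 0.373 CPM, in 2x replicate 3. Prg2 did not reach the level for testing, which was 1 CPM or more in 2 or more of the 11 replicated libraries.

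Ccl11 encodes eotaxin-1, made by fibroblasts and epithelial cells (chromosome 11, 82057832 to 82062955). It was at 152 CPM in the saliva immune library. It was at 37.8 and 27.6 CPM in the naive libraries, 21.5, 15.3 and 49.5 CPM after first exposure, 42.1, 66.0 and 39.5 CPM in 2x, and 46.3, 50.8 and 30.6 CPM in 3x. First exposure replicate 3 lay inside the range of repeat exposure, and the other first exposure libraries were the lowest of all.

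Ccl24 encodes eotaxin-2, made largely by macrophages (chromosome 5, 135569935 to 135573123). It was at 22.9 CPM in the saliva immune library. It was at 35.2 and 23.4 CPM in the naive libraries, 5.03, 6.18 and 16.3 CPM after first exposure, 19.9, 27.9 and 26.4 CPM in 2x, and 18.3, 22.0 and 18.0 CPM in 3x. The 3 first exposure libraries were the lowest of the 12, and the highest value of all was in unbitten skin.

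**Figure D1:**
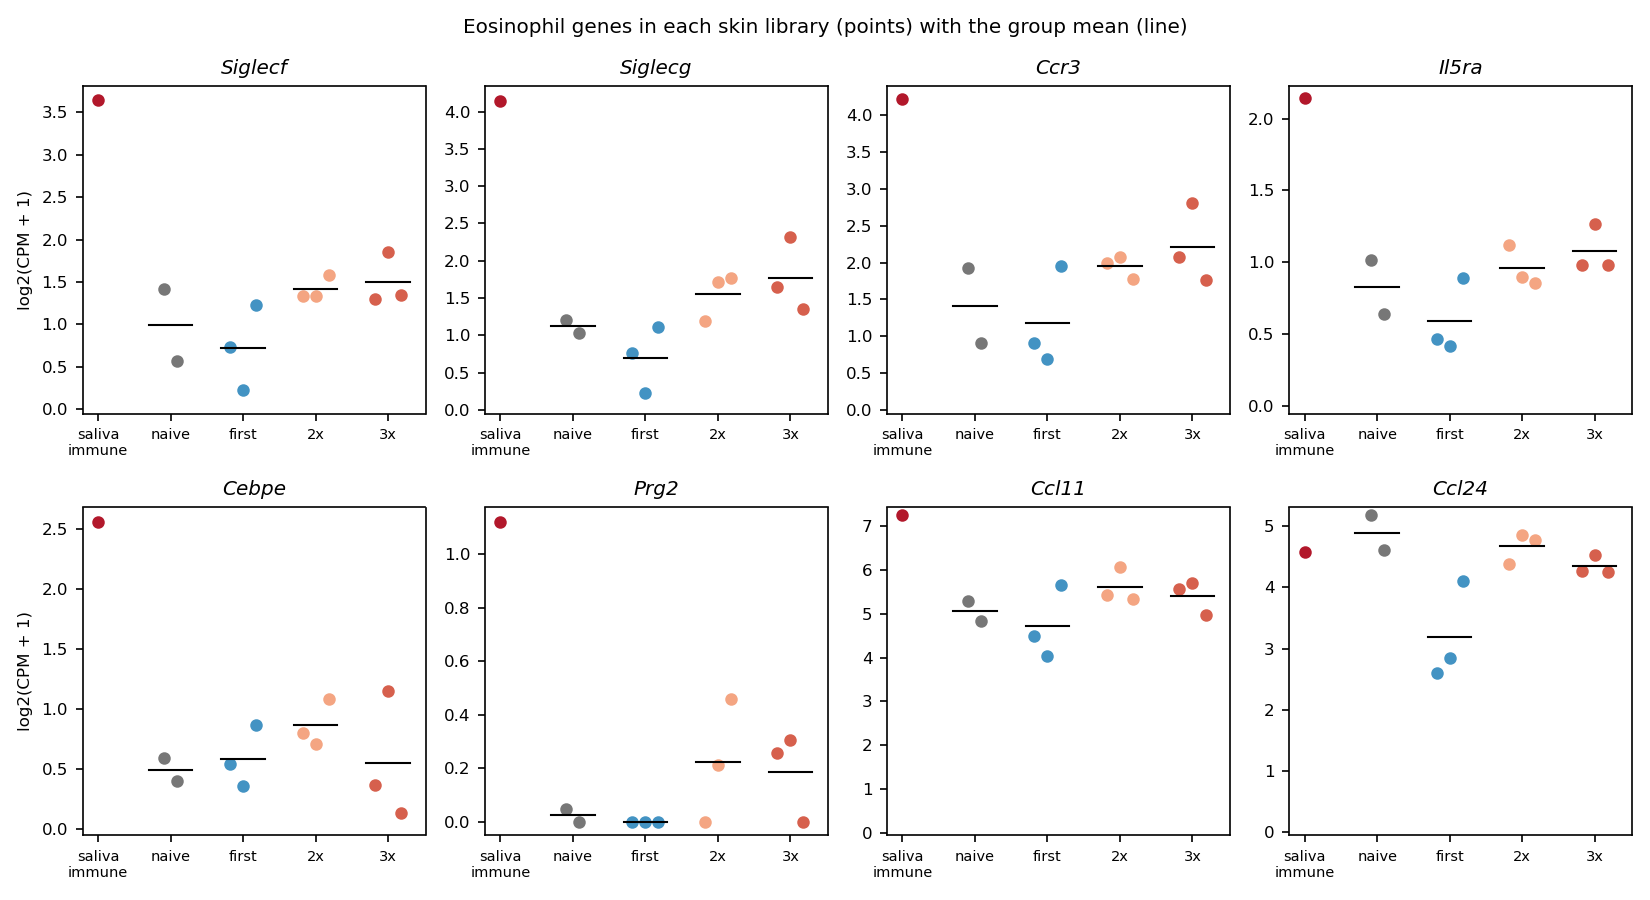
Level of the 8 genes on the log2(CPM + 1) scale (y axis, each panel with its own range from 0), with 1 point for each of the 12 libraries and groups along the x axis. Lines mark the means of groups with more than 1 library. The saliva immune point is the highest in 7 panels, and in the Ccl24 panel the 3 first exposure points are the lowest.

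The order of the group means was the same for Siglecf, Siglecg, Ccr3 and Il5ra: saliva immune, 3x, 2x, naive, first exposure. For these genes only the step below saliva immune, and for Siglecg also that of 2x over naive skin (1.99 ± 0.621 and 1.17 ± 0.192 CPM, with ranges that overlap), exceeded the larger SD of the pair. The order was saliva immune, 2x, 3x, first exposure, naive for Cebpe, and saliva immune, 2x, 3x, naive, first exposure for Ccl11 and Prg2. Below saliva immune, the only step in those orders beyond the larger SD was that of 3x over naive skin for Prg2, where both levels were near the floor. Ccl24 ran from naive (29.3 ± 8.36 CPM) through 2x (24.7 ± 4.30), saliva immune (22.9) and 3x (19.4 ± 2.23) to first exposure, with the steps below saliva immune and below 3x beyond the larger SD. Per length of exon, the eotaxins were the most abundant: the median of the 11 other libraries was 36.5 CPM per kb for Ccl11 and 15.3 for Ccl24, between 0.241 and 0.852 for Il5ra, Siglecg, Cebpe, Siglecf and Ccr3, and at 0 for Prg2. In the saliva immune library Ccl11 was at 141 CPM per kb and the 4 lectin and receptor genes at 0.953 to 5.40.

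Repeat exposure was compared with first exposure, to ask whether skin that has met ticks before holds more of these transcripts. All 7 tested genes had a positive log2 fold change, on the log2(CPM + 1) scale, with a median of 0.79 against -0.06 over all 17064 genes tested. None passed an adjusted p of 0.05, where limma called 42 genes higher and 98 lower, 0.82% in all (44 and 54 under median-of-ratios scaling). An unadjusted p under 0.05 was reached by 6 of the 7, and by 3518 genes, and limma on voom weights gave 0 and 6. Libraries did not overlap for 3 of the 7, Ccl24, Siglecg and Siglecf, against 3.07% of all tested genes in that direction. Most other lists of genes also had positive median fold changes. They were 0.69 for keratinocyte, 0.92 for macrophage, 1.25 for adipocyte and 1.33 for mast cell genes. The exceptions were hair follicle (-2.82) and skeletal muscle genes (-1.11). A positive shift was thus not particular to this group.

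Ccl24 had a log2 fold change of 1.33 (SE 0.31, adjusted p = 0.0747). Siglecg averaged 2.27 ± 0.944 CPM after repeat exposure and 0.677 ± 0.499 CPM after first exposure (SD, n = 6 and 3), a log2 fold change of 0.96 (SE 0.26, adjusted p = 0.103), and Siglecf 1.78 ± 0.454 and 0.723 ± 0.587 CPM (0.73, SE 0.25, adjusted p = 0.164). Ccr3 (0.90), Ccl11 (0.79) and Il5ra (0.42) had adjusted p between 0.188 and 0.22, and Cebpe lay at 0.12 (95% interval -0.40 to 0.64, adjusted p = 0.767). First exposure replicate 3, the library of its group with little hair follicle, held the highest level of every gene of the group among the first exposure libraries except Prg2, which was at 0 in all of them. Without it limma called all but Cebpe higher, with adjusted p of 0.0116 for Ccl24, 0.0264 for Ccl11, 0.0351 for Siglecg, 0.0371 for Ccr3, 0.0407 for Siglecf and 0.04997 for Il5ra, while it called 2260 genes, 13.3% of those tested. The first exposure libraries then left had follicle means of 9.69 and 10.02, above every repeat exposure library (0.61 to 9.52). Exposure and follicle content cannot be told apart there. With first exposure replicate 3 kept and the follicle mean as a covariate, the fold changes of the 7 genes lay between 0.13 and 1.19 and none was called.

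**Figure D2:**
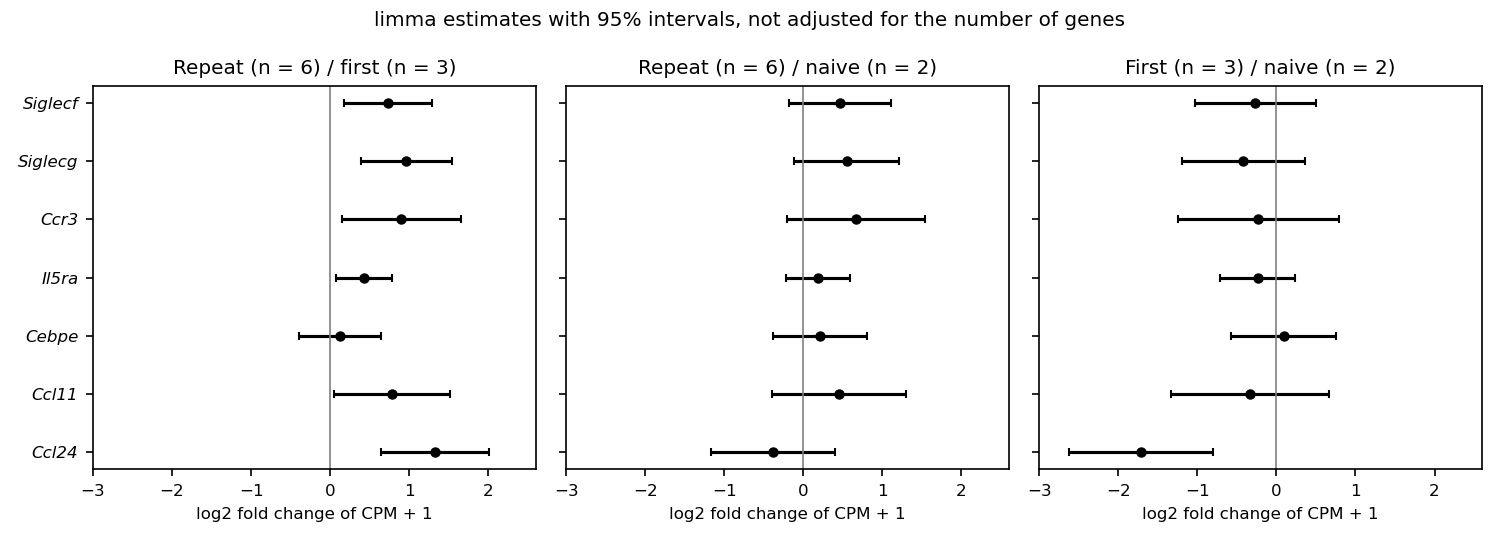
log2 fold change on the log2(CPM + 1) scale (x axis) of the 7 tested genes in 3 comparisons (repeat against first exposure, repeat exposure against naive skin, first exposure against naive skin), with 95% intervals from limma as horizontal lines. The intervals of 6 genes lie above 0 for repeat against first exposure, without adjustment for the number of genes, and that of Ccl24 lies below 0 for first exposure against naive skin.

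The comparison of first exposure with naive skin asks what a first bite changed. No gene of the group was called, where 0.0117% of tested genes were (2 of 17064; 2798 at an unadjusted p under 0.05, with Ccl24 alone of the group). Ccl24 averaged 9.16 ± 6.18 CPM after first exposure and 29.3 ± 8.36 CPM in naive skin (SD, n = 3 and 2), a log2 fold change of -1.71 (SE 0.40, adjusted p = 0.109), with no overlap of libraries. Such non-overlap to the lower side was met by 14% of tested genes. Without first exposure replicate 3 its log2 fold change was -2.18 (adjusted p = 0.0166), with 3.54% of genes called. The follicle means left in first exposure then lay above those of naive skin. The other 6 genes had log2 fold changes between -0.42 and 0.09, all with libraries that overlapped, and those of Siglecf, Ccr3, Cebpe and Ccl11 changed sign on leaving out 1 library.

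Within the series numbered 6, each repeat exposure group was compared with naive skin. In 2x, Ccl11 averaged 49.2 ± 14.6 CPM and in naive skin 32.7 ± 7.19 CPM (log2 fold change 0.55, adjusted p = 0.681), and 6 of the 7 genes had positive fold changes, with a median of 0.42 against 0.01 for all genes. Ccl11 and Cebpe did not overlap with naive skin, as did 14.7% of tested genes to the higher side. In 3x, Siglecg averaged 2.55 ± 1.27 CPM and in naive skin 1.17 ± 0.192 CPM (0.65, adjusted p = 0.779), without overlap, as for 15.5% of genes to the higher side. Ccl24 lay lower in 3x without overlap, at 19.4 ± 2.23 CPM against 29.3 ± 8.36 CPM in naive skin (-0.55, adjusted p = 0.848), as did 9.58% of genes. The gene called in 3x and the 6 in 2x, 0.00586% and 0.0352% of those tested, were not of this group, and no gene of it had an unadjusted p under 0.05. Both comparisons share the naive libraries. With 2x and 3x together, limma called 0 of 17064 genes (0%; 1592 at an unadjusted p under 0.05 and 0 of the 7), and the 95% intervals reached from -0.20 to 1.53 for Ccr3 and from -1.17 to 0.40 for Ccl24.

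Skin of 3x was compared with that of 2x, to ask whether the number of exposures mattered. limma called 0 genes (0%; 878 at an unadjusted p under 0.05 and 0 of the 7; 0 of the 7 on voom weights). Fold changes lay between -0.32 for Ccl24 and 0.26 for Ccr3, and all 7 genes had libraries that overlapped, while 7.3% of tested genes did not to the higher side and 4.41% to the lower. The 95% interval was -0.61 to 0.77 for Siglecf and -0.65 to 1.17 for Ccr3.

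The saliva immune library was set beside first exposure, which shares its title series, with 1 library and hence no test. By a rule of at least 1 on the log2 scale above the first exposure mean and above all 3 libraries, all 7 tested genes were higher, against 4.5% of tested genes. The ratio to the first exposure mean was 24.7 for Siglecg, 15.9 for Siglecf, 12.1 for Ccr3, 9.42 for Cebpe, 6.50 for Il5ra, 5.30 for Ccl11 and 2.50 for Ccl24. Against first exposure replicate 3 alone, the closest of the 3 first exposure libraries in hair follicle content, the ratios were 14.4, 8.57, 6.11, 5.95, 4.00, 3.08 and 1.41 in the same order of genes.

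Its excess also held over every other library for all the genes but Ccl24. The 2x, 3x and naive libraries are of the other title series, so exposure and series cannot be told apart there. The group was named with earlier results of these data known. Among its tested genes, 6 of 7 were highest in the saliva immune library, as were 6.35% of all tested genes. A ratio of at least 2 to the next highest library was met by the same 6 genes and by 33 genes in all, 0.193% of those tested (a measure chosen after the values were seen). The ratio was 4.38 for Siglecf, 4.21 for Siglecg, 4.01 for Cebpe, 2.95 for Ccr3, 2.42 for Il5ra and 2.31 for Ccl11, and 3.14 for the untested Prg2. For Siglecf, Siglecg, Ccr3, Cebpe and Il5ra the next highest library was 3x replicate 2. The ratio of Ccl24 was 0.649, and 4 libraries exceeded it.

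**Figure D3:**
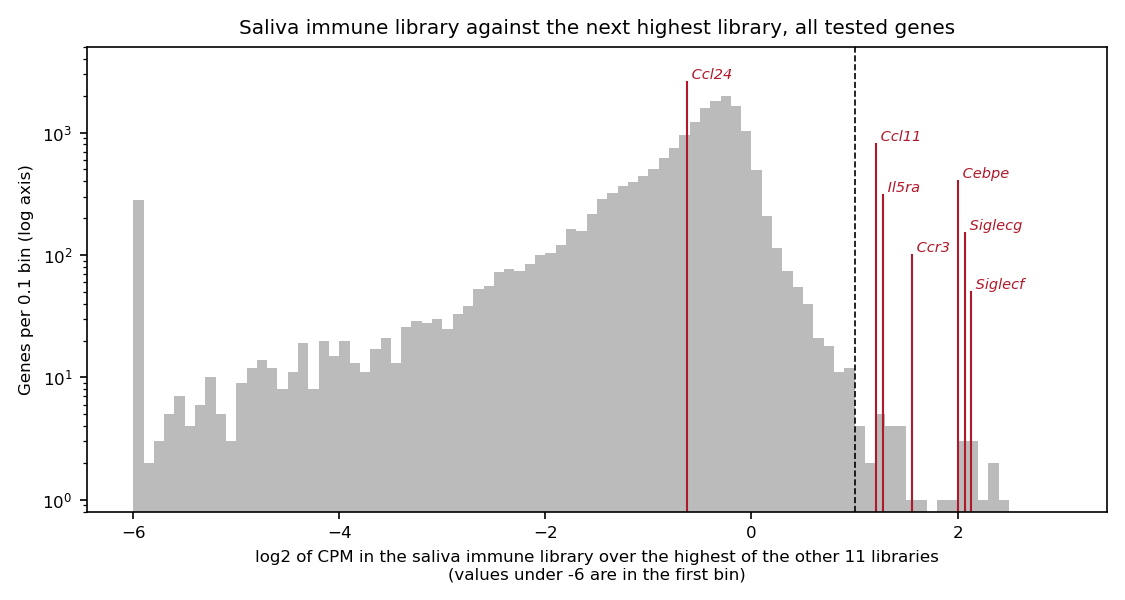
Number of tested genes (y axis, log scale) by the log2 ratio of the level in the saliva immune library to the highest of the other 11 libraries (x axis, bins of 0.1, with values under -6 in the first bin). Red lines mark the 7 tested genes and the dashed line a ratio of 2. All but Ccl24 lie right of the dashed line.

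From a list of 12 other genes known from eosinophils, 9 were found, and 4 of these were highest in the same library. The order below was chosen after the values were seen. Alox15, the 15-lipoxygenase of eosinophils and some macrophages, was at 64.6 CPM in the saliva immune library and at most 12.6 CPM elsewhere. Gata1, a transcription factor that eosinophil development requires and that mast cells and erythroid cells also use, was at 4.06 CPM and at most 1.92 CPM. Below a ratio of 2 to the next library, Ear2, an eosinophil-associated ribonuclease, was at 29.2 CPM and at most 15.2 CPM elsewhere. The fourth, Rnase2a, is described with the replicated groups. The other 5 were not highest there: Ear6 ranked 2, Ptgdr2 ranked 4, and Rnase2b, Cd101 and Hrh4 each ranked 6 of 12.

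The mean over 9 other eosinophil genes was 3.00 on the log2(CPM + 1) scale in the saliva immune library, the highest of 12, and reached at most 2.65 elsewhere. Of the 6 tested, 4 were higher than in first exposure by the rule for the saliva immune library, and 1 was called in a comparison of the replicated groups. It was Rnase2a, another ribonuclease of that family, higher after repeat than first exposure (log2 fold change 4.99, SE 0.59, adjusted p = 0.0249). Rnase2a was at 320 CPM in the saliva immune library, 6.01 and 2.80 CPM in the naive libraries, 1.22, 1.34 and 4.66 CPM after first exposure, 56.7, 134 and 126 CPM in 2x, and 153, 206 and 27.8 CPM in 3x. Every repeat exposure library lay above all 5 of naive skin and first exposure, and in the same 6 libraries the lectin and receptor genes were at 0.807 to 5.98 CPM.

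The interleukin 5 side of the pathway was described from a list of 11 genes. Of the 8 tested, 0 were called between the replicated groups, and 3 were higher in the saliva immune library than in first exposure by the rule that 4.5% of tested genes met. Jak2 and Stat5b, which carry the signal and are the most abundant of the list, were at 110 and 84.8 CPM in the saliva immune library, inside the range of the other libraries. Il5 itself, the growth factor of eosinophils, did not reach the level for testing and is named after its values were seen. It was at 3.47 CPM in the saliva immune library and at most 0.37 CPM elsewhere, and listed at 0 in 4 of the other libraries. The other cytokines of the list, Il3 and Csf2, were not tested and not highest in the saliva immune library. They ranked 2 and 7 of 12 there, at 0.117 and 0.195 CPM.

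Of the cytokines and receptors that induce eotaxins, 8 of 10 were tested, 0 were called between the replicated groups, and 4 were higher in the saliva immune library by that rule. The receptor chains Il4ra and Il13ra1, the most abundant of this list, were at 332 and 177 CPM there and ranked 2 and 4 of 12. Among its cytokines, Il13 ranked 1, Il4 and Il33 ranked 2, Tslp ranked 4 and Il25 ranked 11 of 12, all named after their values were seen. Il13, a type 2 cytokine that induces Ccl11, was not tested, at 3.94 CPM in the saliva immune library and at most 1.22 CPM elsewhere.

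A list drawn up as other ligands of CCR3 held 5 genes, whose binding to CCR3 in the mouse was not examined here. Of these genes, 4 were found and tested. Among them 0 were called between the replicated groups, and 2 were higher in the saliva immune library by the rule. After repeat against first exposure Ccl8 and Ccl7, the most abundant of the list, had log2 fold changes of 2.89 and 3.56 (adjusted p = 0.129 and 0.0865). In the saliva immune library they ranked 5 and 3 of 12, at 383 and 78.1 CPM. Relatives of the lectins and of Cebpe were described as well. Of 6 tested Siglec relatives 0 were called and 2 were higher in the saliva immune library, where Siglec1, a macrophage lectin, was at 137 CPM (rank 2) and Cd33 at 9.01 CPM (rank 7). Of 5 tested C/EBP relatives 0 were called and 0 were higher there, with Cebpa at 274 CPM (rank 7) and Cebpg at 92.2 CPM (rank 10).

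Markers of other cells that can carry these transcripts were set beside the saliva immune result, and their part in it was not tested. By the rule against first exposure, which 4.5% of tested genes met to the higher side, 7 of 7 alternatively activated macrophage genes, 4 of 10 macrophage genes, 5 of 8 neutrophil genes, 4 of 7 T cell genes, 2 of 5 basophil genes, 2 of 5 erythrocyte genes and 1 of 9 mast cell genes were higher. None of 8 fibroblast genes and none of 3 tested granulocyte precursor genes was. To the lower side, which 2.95% of tested genes met, were 10 of 11 hair follicle genes, 1 mast cell gene and 1 erythrocyte gene.

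Set against all 12 libraries, the list means in the saliva immune library ranked 4 for alternatively activated macrophages, 6 for macrophages, 5 for neutrophils, 4 for T cells, 5 for basophils, 7 for mast cells, 7 for fibroblasts and 9 for granulocyte precursors. The basophil mean was 1.78 on the log2(CPM + 1) scale there, against 1.01 to 2.45 in the repeat exposure libraries. Mcpt8, the basophil protease, and Retnla, which eosinophils and macrophages are known to express, are named after their values were seen. Mcpt8 was at 2.61 CPM in the saliva immune library, against up to 7.57 CPM in 3x replicate 2. Retnla was at 828 CPM in the saliva immune library and at most 308 CPM elsewhere. The other genes of the alternatively activated macrophage list were not highest in that library. Folr2 ranked 2, Arg1 and Mrc1 ranked 4, and Chil3, Cd163 and Clec10a ranked 5 of 12.

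**Figure D4:**
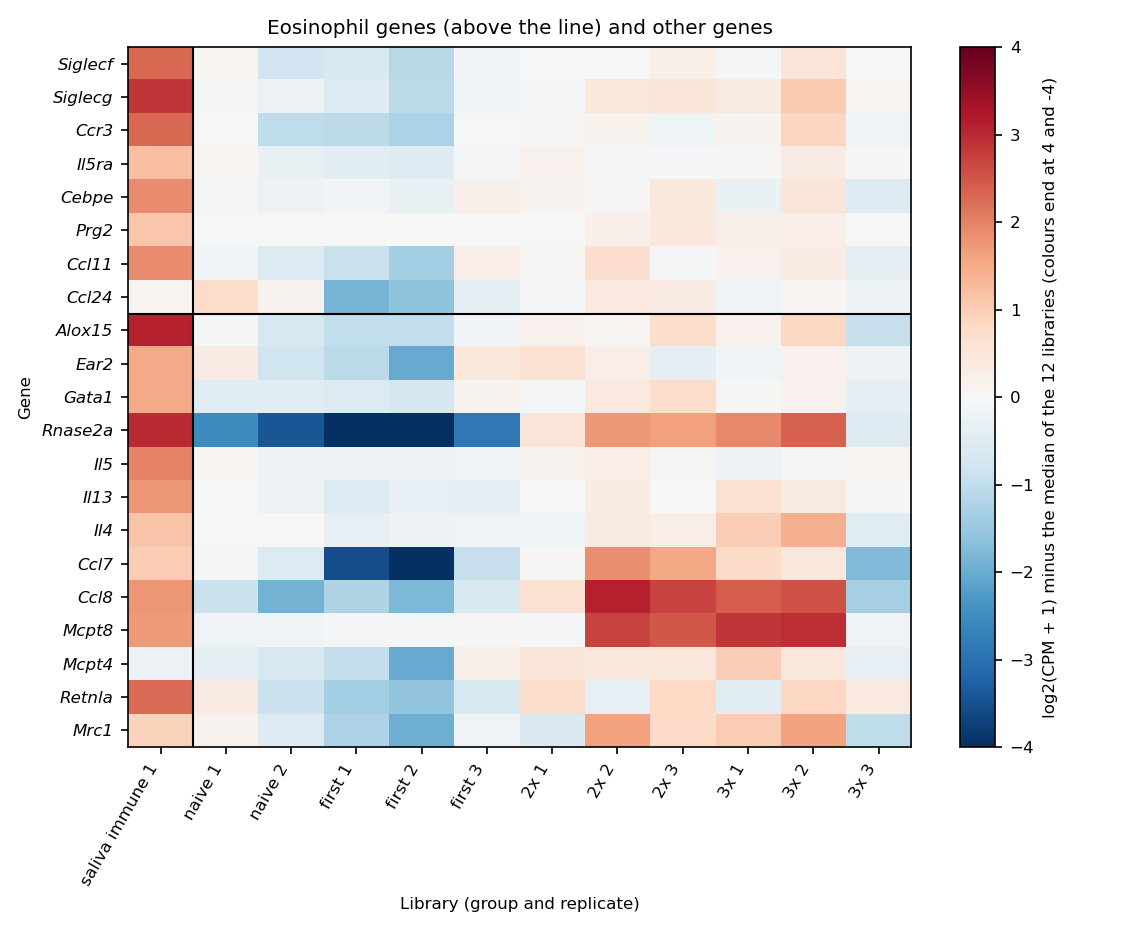
Level of the 8 genes (above the line) and 13 other genes (below it) in the 12 libraries (columns), as log2(CPM + 1) minus the gene's median over the 12, in colours that end at 4 and -4. Genes below the line were chosen after their values were seen. The saliva immune column, at the left, is above the median for all 8 genes but Ccl24 by more than any other column, whereas Rnase2a is also above its median in the 2x and 3x columns other than replicate 3 of 3x.

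Likeness between genes was measured by Pearson's correlation of log2(CPM + 1) over the 12 libraries, as a description. The points share their library and its composition, and the saliva immune point has a large weight. The 3 most similar genes were all from the group for Siglecf (Il5ra 0.97, Ccr3 0.97, Siglecg 0.97) and for Ccr3 (Il5ra 0.98, Siglecf 0.97, Siglecg 0.95), of 14380 genes ranked. For Il5ra they were Ccr3, Siglecf and Daglb (0.94), and for Siglecg they were Siglecf, Alox15 (0.95) and Ccr3. For Cebpe the genes were Alox15 (0.95), Cdc42ep2 (0.94) and Pmm1 (0.91). Without the saliva immune library (n = 11), Ccr3 was the gene most like Siglecf (0.94) and most like Il5ra (0.95), while Il5ra ranked 9 and Siglecg 15 for Siglecf. For Siglecg, Siglecf then ranked 146, Ccr3 266 and Il5ra 790, and for Cebpe, Siglecf ranked 654 and Il5ra 1741. Over these 11 libraries Spearman's rho was highest, among the pairs of the 8 genes, for Ccr3 with Ccl11 (0.95), followed by Siglecf with Siglecg (0.88), Siglecg with Prg2 (0.86) and Ccr3 with Il5ra (0.80), and it was 0.59 for Ccr3 with Siglecf.

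Of the eotaxins, Ccl11 had higher Pearson correlations with the lectin and receptor genes than Ccl24 had. Ccl11 was most like Daglb (0.96), Tfpi2 (0.95) and Gapt (0.95) over the 12 libraries, and correlated at 0.94 with Ccr3, the fifth gene in its ranking, and at 0.91 with Siglecf. Without the saliva immune library these were 0.87 and 0.81, with Ccr3 then ranked 326 and Siglecf 719 of 14380 genes for Ccl11. Ccl24 was most like Casp12 (0.94), Morf4l1b (0.92) and Cd209a (0.91), a C-type lectin of dendritic cells and macrophages. It correlated at 0.51 with Ccr3, 0.47 with Siglecf and 0.60 with Ccl11, and at 0.64, 0.68 and 0.73 without the saliva immune library.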

How the data were processed

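RNA was sequenced from 12 mouse skin biopsies. The deposited table gives CPM for 25070 named genes in 12 libraries, to which 0.0001 CPM had been added by the authors. Per the submitters' processing notes, STAR, Partek 8.0.19 and GRCm38.p6 were used. Of the annotation and the counting program, the sources used here say nothing. Reads per library were estimated from the CPM step that 1 read makes. Values between 0.01 and 3 CPM were whole reads, within 0.02 reads, for 73.4% to 79.3% of values, against at most 8.14% for unrelated steps. As this is not nearly all values, no count test was run. Of the values of the 8 genes described, 88 of 96 were whole within 0.05 reads. The floor of 3 reads and Poisson intervals cover counting error only.

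The 17064 genes that reached 1 CPM in 2 or more of the 11 replicated libraries were tested on log2(CPM + 1). The test was limma's (version 3.58.1, R 4.3.3), its prior variance followed a trend, and calls needed a Benjamini-Hochberg adjusted p below 0.05. Fold changes on this scale understate changes of low genes. Repeat exposure pooled 2x and 3x in a fit of 3 groups (8 residual degrees of freedom), and other comparisons used 4 groups (7). The saliva immune library (n = 1) entered no fit. The test was checked on simulated counts with known changes, which held no differences in hair follicle content between libraries.

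Groups follow the labels. The genes, 20 lists of other genes (155 of 162 found) and tests were chosen with earlier results of these data known. The naming rule took all genes of the group, called genes of each list or else its 2 most abundant, and for each gene the 3 most alike. For lists of other cell types and tissues, the list values stand in place of the genes so selected. Il5, Il13, Il4, Il33, Tslp, Il25, Mcpt8, Retnla and other genes outside the rule were chosen after their values were seen. Alternatives were a pseudocount of 0.1, no filter, median-of-ratios scaling, the hair follicle mean as a covariate, leaving out each library, and, added after the data were seen, voom weights on estimated reads. Coordinates and promoters are RefSeq's for GRCm38.p6, and exon lengths are from the GENCODE annotation of that build. Python 3.11.15, pandas 2.3.3, scipy 1.17.1 and matplotlib 3.10.9 were used.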

Additional observations from a re-analysis of the deposited data

Results flagged for a closer look

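Ccr3 in 3x replicate 2, at 5.98 CPM, lay far from the other 5 repeat exposure libraries, whose highest was 3.22 CPM, by Dixon's criterion at the 95% level. Of 8 sets of 6 repeat exposure values checked, 1 per gene, this was the only one past it, and chance flags about 1 in 20.

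The saliva immune library, which enters no test, was above both naive libraries for 7 of the 8 genes. The share of all tested genes above both naive libraries was not counted, while 6.35% were highest of all 12 libraries there. The levels in the saliva immune library were 11.5 CPM for Siglecf, 16.7 CPM for Siglecg, 17.7 CPM for Ccr3, 4.87 CPM for Cebpe, 1.17 CPM for Prg2, 3.41 CPM for Il5ra and 152 CPM for Ccl11, against at most 1.68, 1.31, 2.79, 0.504, 0.0337, 1.03 and 37.8 CPM in naive skin. The bite and the saliva treatment, the title series and the single library cannot be told apart in this difference.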

How the results depend on the processing

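Of 440 alternative values of the log2 fold changes (28 results under up to 16 alternatives), 421 kept their direction and side of the threshold, 7 passed the threshold, and 12 changed sign. The 7 were those without first exposure replicate 3 given in the report. Sign changes came on leaving out 1 library, with ranges of -0.69 to 0.16 for Siglecf, -0.74 to 0.28 for Ccr3, -0.047 to 0.21 for Cebpe and -0.80 to 0.015 for Ccl11 in first exposure against naive skin, -0.0032 to 0.38 for Il5ra in repeat exposure against naive skin, and -0.10 to 0.18 for Siglecf, -0.058 to 0.43 for Siglecg, -0.033 to 0.49 for Ccr3 and -0.34 to 0.030 for Ccl11 in 3x against 2x. These counts and ranges leave out the comparisons of 2x and of 3x with naive skin. Under the alternatives, ranges crossed 0 in 2x for Siglecf (-0.0036 to 0.85), Il5ra (-0.062 to 0.32) and Ccl24 (-0.51 to 0.063). In 3x the range of Cebpe did (-0.29 to 0.26). The number of genes of the group called stayed at 0 under the alternatives run, except that on leaving out 1 library it was 0 to 1 for first exposure against naive skin and 0 to 6 for repeat against first exposure. Counts over all genes moved more, and the cause was not tested. For first exposure against naive skin, 2 became 9 with a pseudocount of 0.1, 9 without the filter, 26 with median-of-ratios scaling (8 higher and 18 lower, against 1 and 1) and 4 with voom weights, and 0 to 600 on leaving out 1 library. For 2x against naive skin, 6 became 11 without the filter and 0 to 5 on leaving out 1 library. For 3x against naive skin, 1 became 5 without the filter, 0 with voom weights and 0 to 1 on leaving out 1 library. For repeat exposure against naive skin, 0 became 8 without the filter and 0 to 6 on leaving out 1 library. For repeat against first exposure, 140 became 50 with the pseudocount, 259 without the filter, 44 with the follicle covariate, 75 with voom weights and 0 to 2260 on leaving out 1 library. For 3x against 2x it was 0 to 1. Without the filter Prg2 had an adjusted p of 0.262 for repeat against first exposure. No paired analysis was possible because the labels give the replicates no numbers that groups share. Depth limits Prg2, and Cebpe and Il5ra outside the saliva immune library, most.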
